A study of Mus musculus with 4 samples.

Results

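The genes described here carry glucose into the cell, break it down to pyruvate, exchange lactate and admit pyruvate to the mitochondrion. They were chosen by symbol, as a list of 35 genes of this pathway, and all 35 were found among the 45777 genes of the deposited table. This list and the further lists below were chosen with earlier results of these data known. Their shares set against all measured genes are therefore descriptive and not independent of the data. The series measured RNA in C2C12 myotubes, the multinucleate muscle cells that a clonal mouse myoblast line forms in low serum, and compared a pair of in vitro models of exercise. It has 4 groups of 1 library each: myotubes titled EPS, their titled control, myotubes given clenbuterol, and the control for clenbuterol. EPS is taken to mean electrical pulse stimulation, which the labels do not spell out, and clenbuterol is an agonist of the β2-adrenergic receptor, which raises cyclic AMP. All 4 cultures grew in DMEM with 2% horse serum, and the treatment field lists clenbuterol at 30 ng/ml for every library, controls included, so groups rest on the titles. The sources used here do not give pulse settings, the duration of each treatment or the glucose content of the medium.

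For the EPS pair the titles and the names of the data disagree: data under the EPS title are named as control, and those under the control title are named as EPS. The text follows the titles and calls these libraries titled EPS and titled EPS control. Every direction within that pair is reversed if the data names hold. The clenbuterol pair has no such conflict.

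Glucose enters muscle through GLUT transporters, is trapped by hexokinase, and is committed to glycolysis by phosphofructokinase, which fructose 2,6-bisphosphate activates. Pyruvate then either becomes lactate, which leaves or enters through monocarboxylate transporters, or enters mitochondria through the MPC carrier, where pyruvate dehydrogenase converts it to acetyl-CoA. PDK kinases switch pyruvate dehydrogenase off and PDP phosphatases switch it back on. Several steps have a form that predominates in adult muscle (Pfkm, Pgam2, Eno3) beside a form found in most cells (Pfkl, Pgam1, Eno1). Many genes of the pathway are known targets of the hypoxia-inducible factor HIF-1.

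Libraries held 32640884 to 35597074 estimated counts, and between 13412 and 13489 genes reached a TPM of 1 (the share of transcripts corrected for length). All 10 myotube markers exceeded a TPM of 1, and their summed TPM was 11739 in titled EPS and 16142 in its titled control, against 18287 in clenbuterol and 17694 in the matching control. The 7 markers of cycling myoblasts summed to between 240.5 and 313.9, of which Id3 alone made up 115.9 with clenbuterol and 35.9 in its control. Of 5 adipocyte markers 4 were at 0 in all libraries, and none reached a TPM of 1. Of 7 immune, endothelial and neural markers 6 stayed below a TPM of 1, the exception being Cd68, and of 5 osteoblast markers 3 did. In such bulk RNA, fewer cells of a type and less RNA per cell cannot be told apart.

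Levels below are TPM, which can be compared between genes, and differences are ratios of CPM, counts over the library size, with sizes scaled by TMM factors. The bracketed 95% interval of a ratio covers counting error only. With 1 library per group there is no test between conditions and nothing measures the spread between cultures, so differences are described by size, and 1.5-fold is the size counted. A gene counted as measured in a pair when its TPM was at least 1 in at least 1 of the pair's libraries.

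The 35 genes together made up 1.69% of all TPM in titled EPS, 1.82% in titled EPS control, 1.39% with clenbuterol and 1.38% in its control. Pkm, the pyruvate kinase gene, and Aldoa, the main muscle aldolase gene, were the most abundant on average, Pkm at 2291, 2465, 1813 and 1802 TPM and Aldoa at 1996, 2541, 1914 and 1935, in the order of groups above. The lowest were the transporter genes Slc2a3 and Slc2a4 and the brain-type aldolase gene Aldoc. Slc2a4 encodes GLUT4, the insulin-responsive transporter of adult muscle, and stood at 0.423, 0.680, 1.23 and 1.18 TPM in that order, while Slc2a1, which encodes GLUT1, supplied at least 98.0% of the summed TPM of Slc2a1, Slc2a3 and Slc2a4 in every library. The plot of levels shows that for most genes the colours group by culture pair. In CPM both EPS libraries lay above both clenbuterol libraries for 21 of the 35 genes and below them for 10. Of all 13969 genes measured across the pairs, 30.9% lay above and 29.2% below in the same way. Most genes thus grouped by pair, and the shares were not matched for count level.

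**Figure D1:**
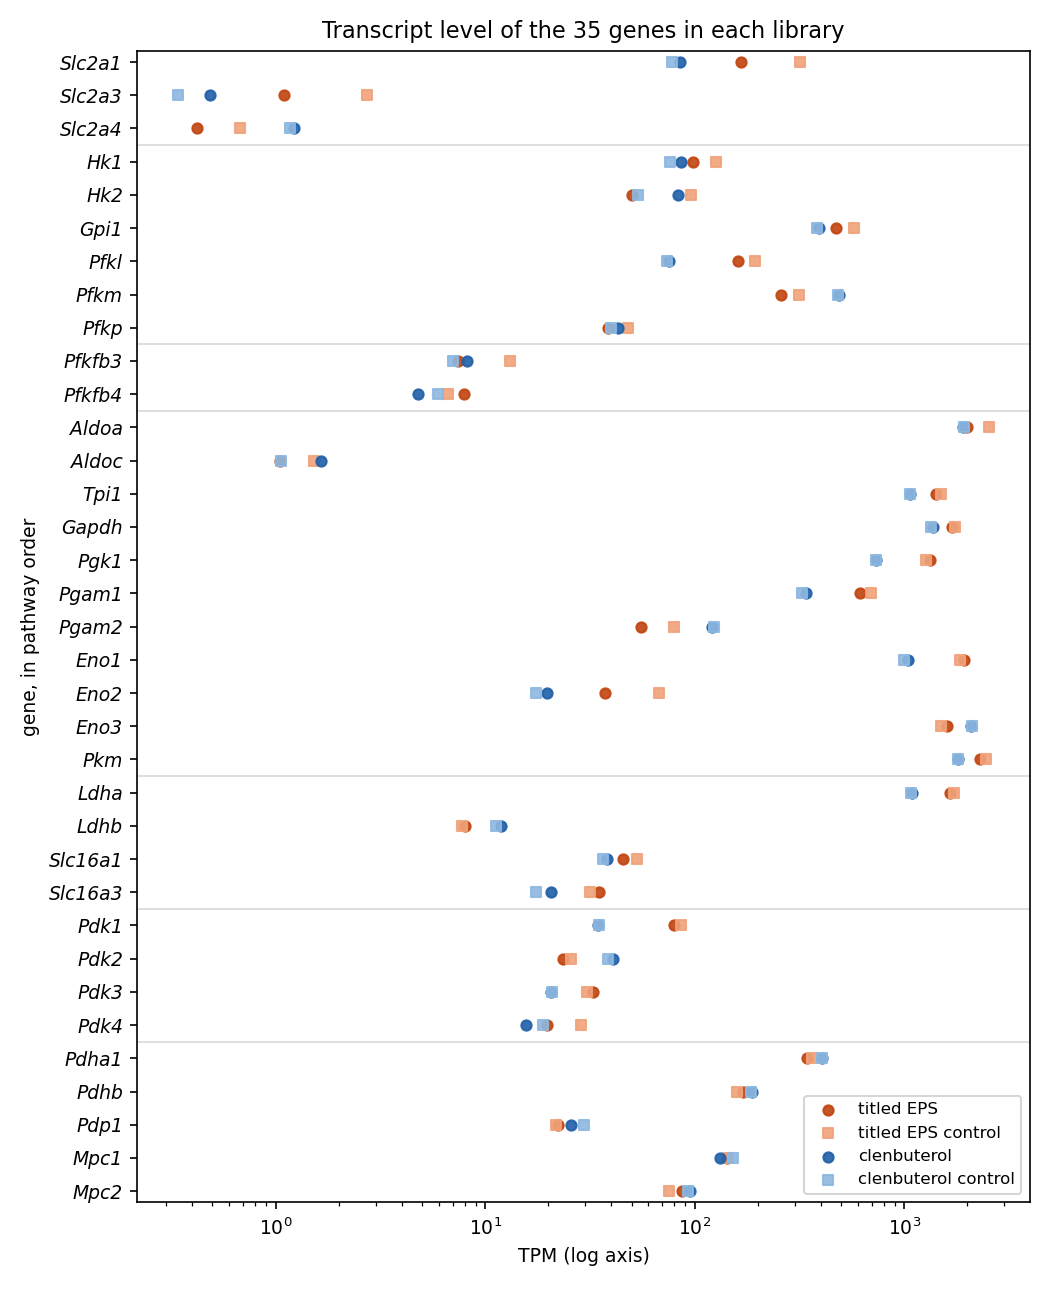
TPM of each of the 35 genes (log axis) in the 4 libraries, 1 point per library, with genes in pathway order and grey lines between steps. Aldoa, Pkm and Eno3 lie near the top, while Slc2a3, Slc2a4 and Aldoc lie near 1.

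The first comparison asks how the pathway differed between myotubes given clenbuterol and their control. Hk2, the inducible hexokinase of muscle, was higher with clenbuterol, and little else in the pathway differed. Of 34 measured genes 2 were at least 1.5-fold higher (5.88%) and 0 lower, where 3.75% of all 13788 measured genes were higher and 3.10% lower. The median log2 ratio of the 34 was 0.05, against 0.01 for all measured genes. Of the 34, 26 lay above 0 and 8 below (23.5%), where 48.0% of all measured genes lay below. The number below was 6 with DESeq2 size factors and 11 with library totals alone. At 2-fold, 0 of 34 were higher or lower, against 1.88% and 1.11% of all measured genes. Counting intervals lay wholly above 1 for 16 of 34 genes and wholly below for 3, where 17.7% and 13.9% of all measured genes did. Intervals narrow as counts rise: Pkm, on 63185 and 62634 counts, had one of 1.03 to 1.05. The shares were not matched for count level, so they do not set the pathway apart.

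Hk2, on mm10 chromosome 6 at 82725025 to 82774454, had 6497 counts (83.0 TPM) in the clenbuterol library and 4279 (53.6 TPM) in its control. Its CPM was 1.56-fold higher (1.5 to 1.62). Across the 4 libraries Hk2 had a pair of high values, clenbuterol and titled EPS control (95.5 TPM), and a pair of low ones, clenbuterol control and titled EPS (50.2). Hk1, the hexokinase of most tissues, was the more abundant of the pair and was 1.15-fold higher (1.10 to 1.19), at 86.0 against 75.9 TPM. Hk2 thus made up 49.1% of hexokinase TPM with clenbuterol and 41.4% in the control.

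The other gene past 1.5-fold was Aldoc, at 1.64 against 1.06 TPM. Its ratio of 1.53 (1.02 to 2.31) rested on 64 and 43 counts, and it fell short of 1.5-fold in TPM or FPKM with a pseudocount of 1. Pfkfb3, which makes the activator fructose 2,6-bisphosphate, was 1.19-fold higher (1.05 to 1.34), at 8.17 against 6.99 TPM. Slc16a3, which encodes the lactate exporter MCT4, was 1.16-fold higher (1.04 to 1.28), and Slc2a1 1.10-fold higher (1.05 to 1.16). Slc2a3, which encodes the high-affinity transporter GLUT3, did not reach a TPM of 1 in this pair and had 32 and 24 counts.

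From aldolase to pyruvate kinase the abundant enzymes differed by very little. Aldoa, Tpi1, Gapdh, Pgk1, Eno3 and Pkm had ratios between 0.999 and 1.04, and Pgam1 and Eno1 were 1.06-fold higher (1.03 to 1.09 and 1.04 to 1.08). Ldha, which encodes the lactate dehydrogenase subunit of muscle, was at 1087 and 1078 TPM, a ratio of 1.02. The direction of Aldoa, Tpi1, Eno3, Pdk3 and Pdha1 depended on the scaling or unit, all within 0.04 of 0 on the log2 scale. The lowest ratios were those of Pdk4, Pdp1 and Mpc1, which act on pyruvate entry, but other genes of that step lay near or above 1. Pdha1, Pdhb and Pdk2 had ratios of 1.01, 1.03 and 1.08, and Pdk1 and Pdk3 had ratios of 0.994 and 1.00. Pdk4, the fasting- and exercise-induced PDH kinase, was at 15.7 TPM with clenbuterol and 18.9 in the control, a ratio of 0.841 (0.763 to 0.925). Pdp1, the muscle PDH phosphatase, had a ratio of 0.880 (0.822 to 0.943) at 25.6 against 29.5 TPM, and Mpc1, a subunit of the pyruvate carrier, one of 0.912 (0.857 to 0.971) at 132 against 151 TPM. Its partner Mpc2 had a ratio of 1.04 (0.953 to 1.13).

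The second comparison sets the library titled EPS against its titled control. Slc2a1 and Slc2a3, transporter genes, Hk2, Pfkfb3 and Eno2 were lower by title, while the other measured genes differed by less than 1.5-fold. By title 5 of 34 measured genes lay at least 1.5-fold down (14.7%) and 0 up, where 5.53% of all 13828 measured genes were lower and 4.09% higher. Under the data names all 5 would be higher under EPS. Slc2a3 did not count in FPKM with a pseudocount of 1 or at a TPM of at least 5, and neither Slc2a3 nor Pfkfb3 counted in TPM with a pseudocount of 5. The median log2 ratio of the 34 was −0.09, against 0.01 for all measured genes, with 23 of 34 below 0 (67.6%). Of all measured genes 48.6% lay below 0. Counting intervals lay wholly below 1 for 21 of 34 and wholly above for 6, where 25.3% and 25.0% of all measured genes did. Here too the shares were not matched for count level.

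Slc2a1, on mm10 chromosome 4 at 119108745 to 119137330, stood at 165 TPM in titled EPS and 317 in titled EPS control, and at 84.6 and 77.8 in clenbuterol and its control. The 1.87-fold lower CPM by title (1.82 to 1.93) left titled EPS still above both libraries of the other pair. Slc2a3 followed the same order on few counts, 82 against 150, and was 2.03-fold lower (1.54 to 2.69). It was the only gene of the pathway past 2-fold in CPM, where 2.26% of all measured genes were lower by that size and 1.53% higher. Slc2a4 did not reach a TPM of 1 in this pair, with 19 and 28 counts.

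From hexokinase to phosphofructokinase all 6 ratios lay below 1 by title. Hk2 was 1.85-fold lower (1.78 to 1.92), at 50.2 against 95.5 TPM, and its share of hexokinase TPM was 33.9% against 42.9%. Hk1 was 1.26-fold lower (1.22 to 1.31). Gpi1, the glucose phosphate isomerase gene, was 1.19-fold lower (1.16 to 1.21), and Pfkl, Pfkm and Pfkp, the liver, muscle and platelet phosphofructokinase genes, had ratios of 0.857, 0.841 and 0.942. Pfkfb3 was 1.76-fold lower (1.58 to 1.95), at 7.46 against 13.1 TPM, whereas Pfkfb4, which makes the same activator, had a ratio of 1.01 (0.882 to 1.16). For Pfkfb4, at 7.95 against 6.67 TPM, and Pfkp, at 38.6 against 48.2, the size depended on the unit. Across the 9 settings the log2 ratio ran from 0.02 to 0.24 for Pfkfb4 and from −0.32 to −0.06 for Pfkp.

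In the lower part of glycolysis the gene that stood out was Eno2, which encodes the enolase named for neurons and is here a minor form. Eno2 was 1.77-fold lower by title (1.66 to 1.89), at 37.2 TPM in titled EPS, 67.8 in titled EPS control, 19.7 with clenbuterol and 17.4 in its control. The major enolase genes differed the other way, Eno1 with a ratio of 1.08 (1.06 to 1.09) and Eno3 with one of 1.09 (1.07 to 1.11). Aldoa was 1.23-fold lower (1.22 to 1.25) and Pgam2, the muscle phosphoglycerate mutase gene, 1.39-fold lower (1.27 to 1.53), at 55.5 against 79.4 TPM. Aldoc had a ratio of 0.700 (0.464 to 1.05) on 45 and 58 counts. Tpi1, Pgk1, Pgam1 and Pkm had ratios from 0.910 to 1.06, and Gapdh, at 0.974, lay just above 1 in FPKM with a pseudocount of 1.

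Lactate and pyruvate genes split in direction. Ldha had a ratio of 0.979 (0.966 to 0.993), and Slc16a1, which encodes the lactate transporter MCT1, one of 0.888 (0.846 to 0.933), while Slc16a3 was 1.17-fold higher by title (1.08 to 1.26). Pdk4 was 1.42-fold lower (1.31 to 1.54), at 19.7 against 28.8 TPM, and was the PDH kinase gene with the largest difference; Pdk1, Pdk2 and Pdk3 had ratios from 0.932 to 1.09. Mpc2 was 1.18-fold higher by title (1.07 to 1.29), at 86.5 against 75.5 TPM, and Pdhb, a subunit gene of pyruvate dehydrogenase, 1.07-fold higher (1.02 to 1.12). The summed TPM of myotube markers was also lower in titled EPS than in titled EPS control, 11739 against 16142, and its part in these differences was not tested.

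**Figure D2:**
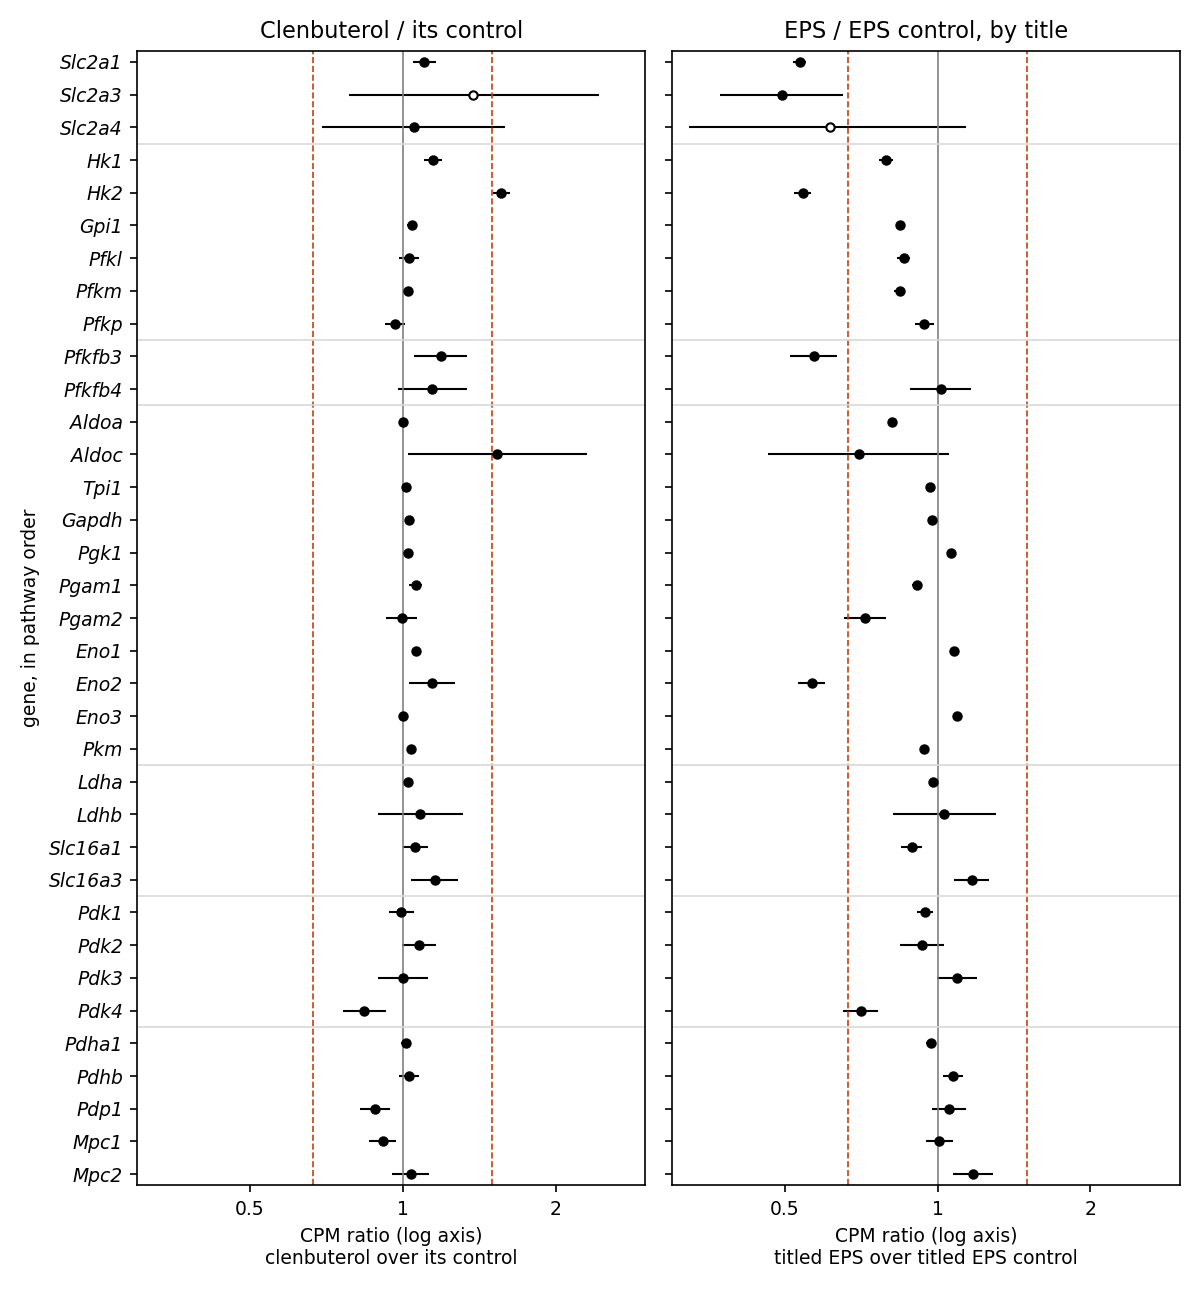
CPM ratio of each gene (log axis) for clenbuterol over its control (left) and titled EPS over titled EPS control (right); bars are 95% counting intervals, open points are genes below a TPM of 1 in both libraries of the pair, and dashed lines mark 1.5-fold. Hk2 lies to the right of the line in the left panel (1.56), and Slc2a1, Slc2a3, Hk2, Pfkfb3 and Eno2 lie to the left of it in the right panel.

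Hk2 was the gene past 1.5-fold in both pairs. The log2 ratio was 0.64 with clenbuterol and −0.88 for EPS by title, so that under the data names Hk2 would be higher in both models. Slc2a1 stood at 0.14 and −0.90, Pfkfb3 at 0.25 and −0.81, and Eno2 at 0.19 and −0.83. With 1 library per group the difference between the models was not tested.

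**Figure D3:**
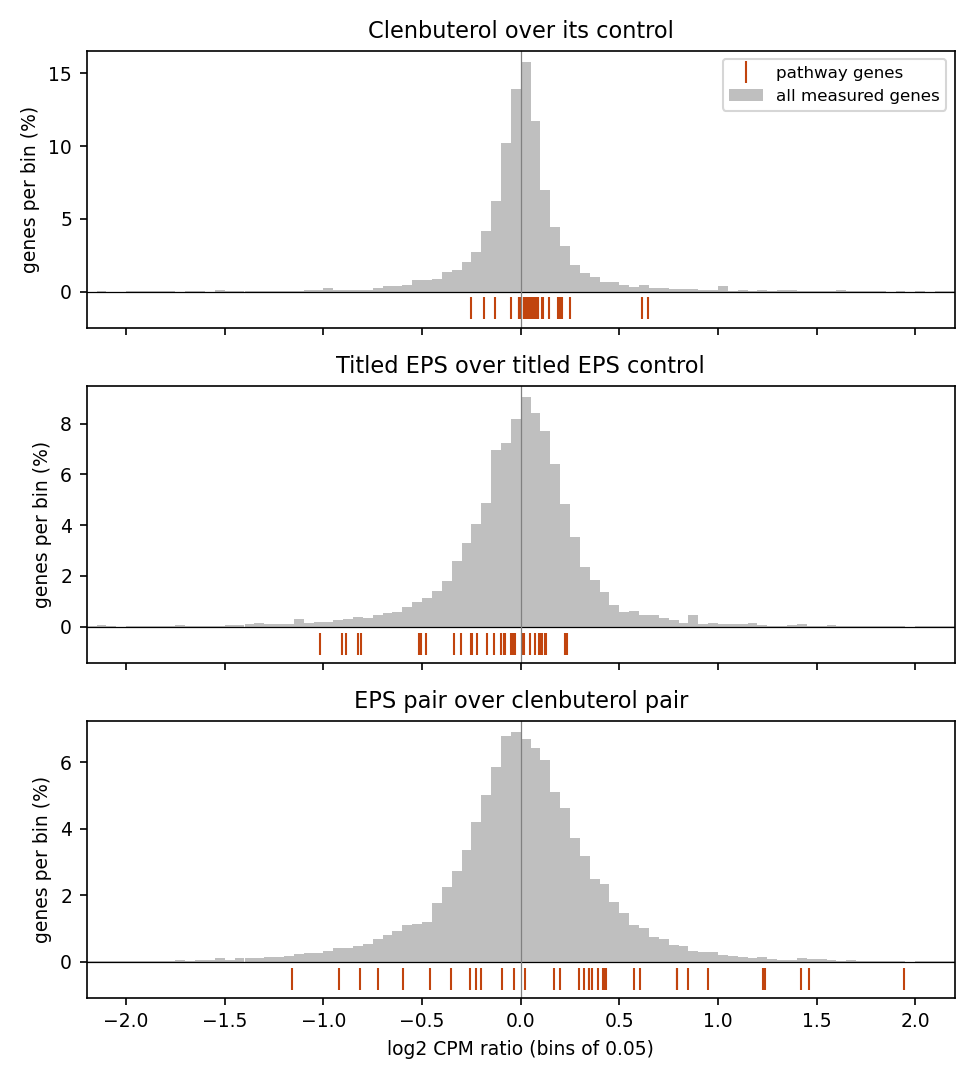
Distribution of log2 CPM ratios over all measured genes (grey bars, percent of genes per bin of 0.05) with the pathway genes as red ticks, for the clenbuterol pair, the EPS pair by title and the EPS pair over the clenbuterol pair. The ticks cluster near 0 in the top panel apart from Hk2 and Aldoc, reach −1.02 (Slc2a3) in the middle, and spread from −1.16 to 1.94 at the bottom.

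The third comparison does not depend on which EPS title is right, since it sets both libraries of the EPS pair against both of the clenbuterol pair. Slc2a1, Eno2, Pfkl and Pdk1 were more than 2-fold higher in the EPS pair, and Pgk1, Pgam1, Eno1, Ldha and Slc16a3 more than 1.5-fold higher, while the muscle forms Pfkm and Pgam2 and the genes Pdk2 and Ldhb were lower. A gene was counted when both libraries of one pair lay beyond both of the other and the mean difference was at least 1.5-fold. By that rule, with Slc2a3 and Slc2a4 included, 10 of 35 genes were above in the EPS pair (28.6%) and 5 below (14.3%), where 5.73% and 6.31% of 13969 measured genes were. Slc2a3, above, and Slc2a4, below, passed the filter only through the pair where each was high. Neither is taken as support, so both shares are too high by that gene. The median log2 difference was 0.34 for the 35 genes and 0.01 for all measured genes. For 29 of the 35 (82.9%) the gap between pairs exceeded the difference within either pair, which held for 47.4% of all measured genes. The 29 genes and the median of 0.34 include Slc2a3 and Slc2a4. None of these shares was matched for count level, so they do not set the pathway apart. Treatment model and culture pair cannot be told apart here, and the sources used here do not say what else separated the pairs.

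Slc2a1 was 2.76-fold and Eno2 2.68-fold higher in the EPS pair, and both also differed within it. Slc2a3, at 1.10 and 2.73 TPM against 0.485 and 0.343, passed the filter only through the EPS pair, where it was high, so its 3.85-fold ratio is given as a value and supports nothing. By contrast Pfkl, Pdk1, Pgam1, Eno1, Pgk1 and Ldha were high in both EPS libraries alike. Pfkl was 2.36-fold higher, at 160 and 194 TPM against 75.3 and 74.1. Pdk1, which restrains pyruvate dehydrogenase and is a known HIF-1 target, was 2.34-fold higher, at 79.5 and 86.0 TPM against 34.4 and 34.8. Pgam1 was 1.93-fold, Eno1 1.80-fold, Pgk1 1.73-fold and Ldha 1.52-fold higher. Pgk1, the phosphoglycerate kinase gene, stood at 1322 and 1274 TPM against 735 and 729. Slc16a3, the lactate exporter gene, was 1.73-fold higher, at 34.9 and 31.6 TPM against 20.6 and 17.4.

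On the other side, Slc2a4 likewise passed the filter only through the clenbuterol pair, with a 2.23-fold lower ratio on 19 and 28 counts against 50 and 49, and it did not count in TPM with a pseudocount of 1. Pgam2 was 1.89-fold lower, at 55.5 and 79.4 TPM against 122 and 124, and Pfkm 1.76-fold lower, at 257 and 313 against 490 and 485. Pdk2, the broadly expressed PDH kinase gene, was 1.65-fold lower, at 23.5 and 25.8 TPM against 40.9 and 38.5. Ldhb, which encodes the heart-type lactate dehydrogenase subunit, was 1.51-fold lower at 8.05 and 7.79 TPM against 12.0 and 11.3, and did not count in TPM or with library totals alone. Eno3, the muscle enolase gene, was 1.38-fold lower. The pyruvate entry genes Pdha1, Pdhb, Pdp1, Mpc1 and Mpc2 stood between 0.783 and 0.978 of the level in the clenbuterol pair. The summed TPM of myotube markers was 11739 and 16142 in the EPS pair against 18287 and 17694. Of the 7 cycling myoblast markers, Mki67 (49.4 and 45.6 TPM against 29.1 and 31.9), Top2a (106 and 98.0 against 67.3 and 70.1), Ccnb1 (65.4 and 56.6 against 38.4 and 41.6) and Myf5 were higher in both EPS libraries. Id1 and Id3 were lower in both, and Pax7 overlapped. The part of either marker list in these differences was not tested.

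**Figure D4:**
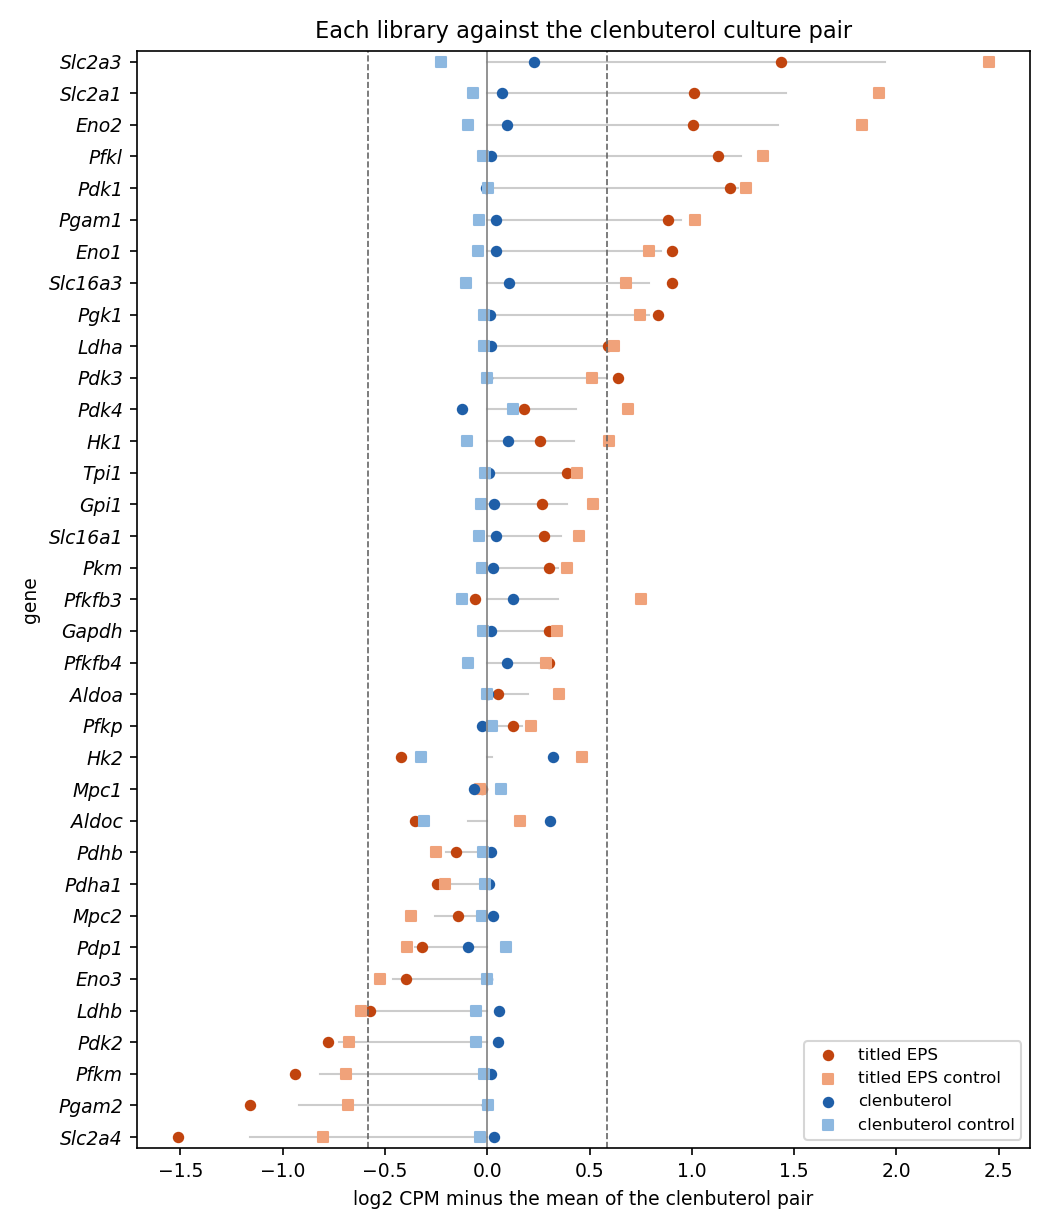
log2 CPM of each gene in each library relative to the mean of the 2 clenbuterol libraries, 1 point per library, sorted by the mean of the EPS pair (end of each grey line); dashed lines mark 1.5-fold. The 2 blue points of most genes lie together near 0, with both EPS points to the right for Slc2a1, Pfkl, Pdk1 and Pgk1 and to the left for Pfkm and Pgam2, while Hk2 shows a high and a low library in each pair.

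Shares of TPM within an enzyme family showed the same division by pair. Pfkm held 56.4% of phosphofructokinase TPM in titled EPS and 56.4% in titled EPS control, against 80.5% with clenbuterol and 81.0% in its control, and Pfkl held 35.2%, 34.9%, 12.4% and 12.4%. Pgam2 held 8.26% and 10.2% of phosphoglycerate mutase TPM in the EPS pair and 26.4% and 27.7% in the clenbuterol pair. Eno3 held 44.9% and 44.0% of enolase TPM against 66.1% and 67.4%. Among the PDH kinases Pdk1 held 51.1% and 50.2% in the EPS pair and 30.8% in each clenbuterol library, and Pdk2 held 15.1% in each EPS library and 36.6% and 34.0% in the other pair.

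**Figure D5:**
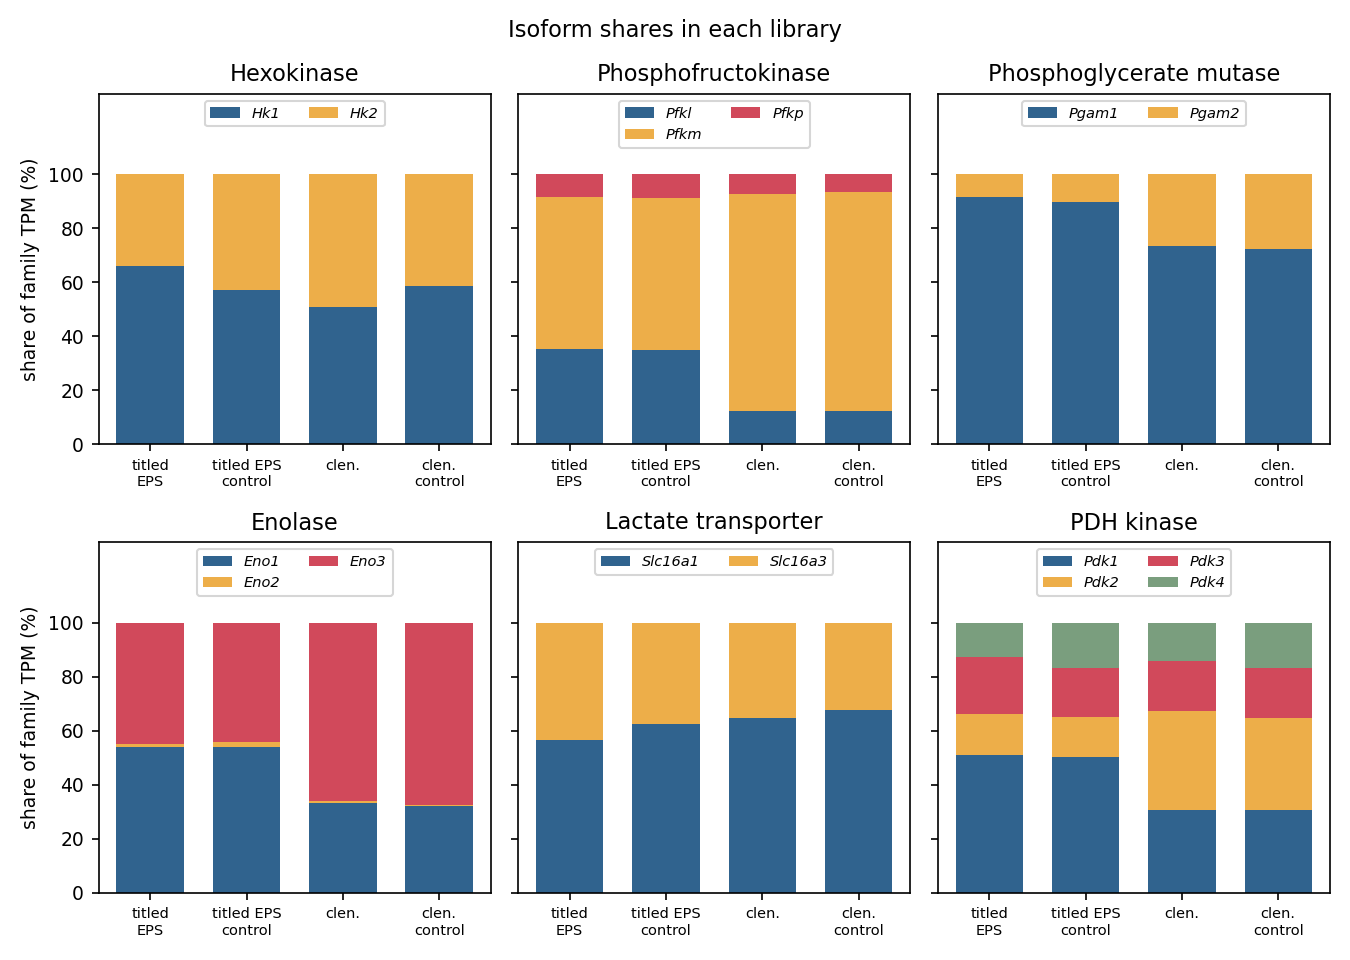
Share of each isoform in the summed TPM of its family (percent, bars start at 0 and stack to 100) in each of the 4 libraries, for 6 families. Pfkm, Pgam2, Eno3 and Pdk2 take larger shares in both clenbuterol libraries than in both EPS libraries, while the hexokinase shares differ within each pair.

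Promoter sequences were read because HIF-1 binds a site whose core reads ACGTG in many known targets (the form GCGTG was not counted). The 250 bases before the RefSeq start (GRCm38.p6, the build also called mm10) are printed 5′ to 3′ on the strand of the gene for Hk2, the gene that differed in both pairs, for Pgk1, Pgam1 and Ldha, which were higher in both EPS libraries and hold the motif, and for Eno2 and Pdk1, which differed more between pairs and do not hold it. These were chosen as examples with and without the motif after the matches were seen, among windows that overlap no exon of their gene. The windows of Slc2a1, which holds 1 match, and Pfkl, which holds none, overlap an exon and are not shown. Capitals mark ACGTG or its reverse complement CACGT.
Hk2 chr6:82774455-82774704 (- strand): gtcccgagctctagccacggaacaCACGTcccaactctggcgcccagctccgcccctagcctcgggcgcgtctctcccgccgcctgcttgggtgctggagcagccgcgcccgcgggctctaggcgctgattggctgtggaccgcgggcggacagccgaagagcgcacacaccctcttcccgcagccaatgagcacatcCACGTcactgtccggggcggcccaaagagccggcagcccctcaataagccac
Eno2 chr6:124769674-124769923 (- strand): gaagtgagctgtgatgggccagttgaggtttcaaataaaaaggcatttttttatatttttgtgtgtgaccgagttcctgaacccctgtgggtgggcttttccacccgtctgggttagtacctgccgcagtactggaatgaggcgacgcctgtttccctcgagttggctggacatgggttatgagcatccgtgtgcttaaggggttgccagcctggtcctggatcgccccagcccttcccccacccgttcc
Pgk1 chrX:106186850-106187099 (+ strand): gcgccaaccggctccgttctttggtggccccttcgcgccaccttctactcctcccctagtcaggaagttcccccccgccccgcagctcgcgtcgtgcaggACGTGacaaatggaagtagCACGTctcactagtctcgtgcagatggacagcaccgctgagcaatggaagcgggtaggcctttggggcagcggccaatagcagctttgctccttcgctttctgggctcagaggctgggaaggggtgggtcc
Pgam1 chr19:41911621-41911870 (+ strand): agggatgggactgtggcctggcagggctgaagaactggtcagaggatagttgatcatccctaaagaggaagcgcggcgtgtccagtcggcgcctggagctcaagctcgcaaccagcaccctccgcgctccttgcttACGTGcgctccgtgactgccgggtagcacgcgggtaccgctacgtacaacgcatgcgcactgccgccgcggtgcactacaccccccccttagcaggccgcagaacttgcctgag
Ldha chr7:46845554-46845803 (+ strand): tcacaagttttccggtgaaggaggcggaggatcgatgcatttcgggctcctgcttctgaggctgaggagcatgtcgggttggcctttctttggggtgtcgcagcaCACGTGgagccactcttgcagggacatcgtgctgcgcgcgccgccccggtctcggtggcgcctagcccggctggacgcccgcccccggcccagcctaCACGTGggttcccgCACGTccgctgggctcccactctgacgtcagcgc
Pdk1 chr2:71872974-71873223 (+ strand): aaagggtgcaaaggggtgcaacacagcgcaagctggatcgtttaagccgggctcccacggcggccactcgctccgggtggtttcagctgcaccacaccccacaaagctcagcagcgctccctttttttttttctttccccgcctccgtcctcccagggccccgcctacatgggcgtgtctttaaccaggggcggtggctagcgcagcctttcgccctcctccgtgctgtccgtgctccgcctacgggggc

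Hk2 holds 2 copies, both on the reverse strand and starting 226 and 52 bases before the start. Pgk1 holds 1 copy on each strand, and Pgam1 holds 1. The Ldha window shown belongs to a RefSeq start inside the span of the gene in the deposited files. It holds CACGTG, an E box palindrome that contains ACGTG on both strands, at 2 places, and 1 further ACGTG match. Another Ldha window, chr7:46846832-46847081, also overlaps no exon of the gene and holds no match. Windows were found for 32 of the 35 genes, with 47 windows in all, and none was found for Slc2a3, Slc2a4 and Pdp1. ACGTG on either strand occurred in 17 of the 47 windows (36.2%) and in 16.6% of the 32851 windows of the RefSeq table, and CACGTG in 10.6% and 6.02%. The windows of these genes were also richer in G and C, with a median of 61.6% against 52.4%, and their part in the motif count was not tested. The motif did not follow the difference between pairs closely: it was in 5 of 9 genes above in the EPS pair, in 2 of 4 below and in 7 of 19 others. In these counts a gene held the motif when any of its windows did. A match is a string of letters, not a measured binding site.

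Related genes were described from a list of 42: other isoforms, partners of the transporters, remaining pyruvate dehydrogenase subunits, the pentose phosphate branch and the glycerol phosphate and gluconeogenic branches. It was chosen with earlier results of these data known. In the clenbuterol pair 31 were measured, with a median log2 ratio of 0.02. Of these 1 was at least 1.5-fold higher (3.23%) and 0 lower, where 3.75% and 3.10% of all measured genes were. The highest was Pfkfb1, a further maker of fructose 2,6-bisphosphate, on 65 and 39 counts (1.72-fold, 1.14 to 2.62). Next was the transporter gene Slc2a10, on 64 and 44 counts (1.497-fold, 1.00 to 2.25). Slc2a10 passed the filter only through the clenbuterol library, where it was high, at 1.29 against 0.875 TPM, so its ratio supports nothing. The lowest were Rpia and Pfkfb2, with ratios of 0.780 and 0.872. In the EPS pair 31 were measured, with a median of 0.05. By title 1 was at least 1.5-fold lower (3.23%) and 0 higher, where 5.53% and 4.09% of all measured genes were. That gene was Pgd, which encodes the second dehydrogenase of the pentose phosphate branch, at 103 TPM in titled EPS, 215 in titled EPS control, 122 with clenbuterol and 118 in its control (2.02-fold lower, 1.94 to 2.11). G6pdx, the first dehydrogenase of that branch, was next at 1.38-fold lower (1.28 to 1.48), while Slc2a6 and Gpd1 were the highest, at 1.30-fold and 1.31-fold. The library titled EPS control was the highest for Pgd, G6pdx, Slc2a1, Slc2a3, Eno2 and Pfkfb3. These genes were picked out for being lower by title, so their order within the EPS pair follows from the choice. It is not read as a pattern shared by the branches. Of the other pentose phosphate genes, Rpia, Tkt and Taldo1 were lower by title, while Rpe, Tigar and Pgls were higher.

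Of 22 genes known to act on the pathway, 18 were measured in the clenbuterol pair and 17 in the EPS pair. This list was likewise chosen with earlier results of these data known. By title 0 of 17 were past 1.5-fold in the EPS pair, where 4.09% of all measured genes were higher and 5.53% lower. With clenbuterol 2 of 18 were at least 1.5-fold higher (11.1%) and 0 lower, where 3.75% and 3.10% of all measured genes were. The 2 were Nr4a1, a nuclear receptor gene that cyclic AMP induces (6.51-fold), and Ppargc1a, the mitochondrial coactivator gene (1.89-fold). Ppargc1a passed the filter only through the clenbuterol library, where it was high, at 1.69 against 0.633 TPM. Its ratio is given as a value and supports nothing. The lowest ratios were those of Creb1 (0.844) and Six4 (0.872). By title the highest in the EPS pair was Hif1a (1.18-fold, 1.14 to 1.21), and the lowest were Nr4a1 and Foxo3, at 1.46-fold and 1.36-fold lower. Between pairs 3 of 18 were above in the EPS pair and 4 below (16.7% and 22.2%, where 5.73% and 6.31% of all measured genes were). These 7 were named after their values were seen. Egln1 and Egln3, oxygen-sensing prolyl hydroxylase genes that are themselves HIF targets, were 1.94-fold and 1.51-fold higher, Egln1 at 101 and 128 TPM against 57.7 and 56.9, and Foxo3 was 1.66-fold higher. Txnip, an inhibitor of glucose uptake whose transcription follows glucose, was 20.1-fold lower in the EPS pair, at 4.12 and 5.75 TPM against 93.7 and 98.4. The other 3 below were Nr4a1, Ppargc1a and Prkaa2, an AMPK catalytic subunit gene (1.52-fold). Nr4a1 stood at 12.8 and 19.7 TPM against 629 and 97.4, and Ppargc1a at 0.291 and 0.256 against 1.69 and 0.633. Both also differed within the clenbuterol pair, so the clenbuterol library raised their mean there. Ppargc1a passed the filter only through that library, and its place among the 4 supports nothing. Of the 31 measured related genes 4 were above in the EPS pair and 4 below (12.9% each, against the same 5.73% and 6.31%), also named after their values were seen. Those above were Pck2 (2.11-fold), Tkt (1.76-fold), G6pdx (1.53-fold) and Emb (1.5-fold), and those below were Slc2a6 (2.17-fold), Gpd1 (1.95-fold), Gpd1l (1.84-fold) and Gpt (1.64-fold).

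Some of these genes have near copies that can take part of their reads. Eno1b held between 30.4% and 30.5% as many counts as Eno1 in every library, Pgam1-ps2 between 30.1% and 31.0% as many as Pgam1, and Mpc1-ps between 23.2% and 25.0% as many as Mpc1. With the copy added, the difference between pairs was 1.80-fold for Eno1 and 1.94-fold for Pgam1. The split of reads between copies is uncertain, but it was nearly constant across the 4 libraries.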

How the data were processed

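RNA was sequenced in 4 libraries of C2C12 myotubes, from strand-specific poly(A) libraries per the labels' protocols. Reads were aligned with HISAT2 to mm10, per the submitters' processing notes. The sources used here name neither the quantifier, nor its annotation, nor how strand was used. The authors deposited estimated counts, FPKM and TPM for 45777 genes in a table of the series, and coverage (mean read depth, a signal, not used), FPKM and TPM for each library. TPM of the 35 genes did not differ by more than 0.001 between the 2 kinds of file.

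Series columns were assigned to samples through the file that the labels list for each sample, and groups follow the titles. CPM used library totals times TMM factors (edgeR 4.0.16, R 4.3.3), and ratios carry exact Clopper-Pearson 95% intervals from the 2 counts, which cover counting error only. The intervals were also run on simulated data, for which no coverage is given here. They take the estimated counts as they stand and leave out the uncertain split of reads between copies. The comparison of pairs used mean log2 CPM of genes with counts in all 4 libraries and TPM of 1 or more in any library. Measured genes, folds of 1.5 and 2, and alternatives (library totals, DESeq2 1.42.0 size factors, TPM and FPKM with pseudocounts, other filters) are as stated. Named genes are the 35, their near copies, and the 2 highest and 2 lowest of each further list in each pair; 1 gene of that rule is not reported here, and others are said to be chosen afterwards. Members and lists were chosen with earlier results of these data known. Motifs were counted in RefSeq promoter windows; protein sequences were not analysed here. Python 3.11.15, numpy 2.4.6, pandas 2.3.3, scipy 1.17.1 and matplotlib 3.10.9 were used.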

Additional observations from a re-analysis of the deposited data

How the results depend on the processing

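No replicate stands behind any value, counting intervals do not cover differences between cultures, and the EPS directions turn round if the data names hold. No paired analysis was possible because each group holds 1 library.

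Across the 9 settings, median log2 ratios of the pathway genes ran from 0.02 to 0.05 with clenbuterol and from −0.12 to −0.06 for EPS by title. Hk2 counted with clenbuterol, and Slc2a1, Hk2 and Eno2 in the EPS pair, in every setting of unit, scaling and filter. The number of pathway genes higher with clenbuterol fell from 2 to 1 in TPM, in FPKM and at a TPM of at least 5, where Aldoc was lost, and to 0 at 2-fold. For EPS by title the number lower went from 5 to 4 in FPKM and at a TPM of at least 5, without Slc2a3, to 3 in TPM with a pseudocount of 5, without Slc2a3 and Pfkfb3, and to 1 at 2-fold. Between pairs the number above went from 10 to 11 in TPM and with library totals, with Pdk3 added. The number below fell from 5 to 3 in TPM, without Slc2a4 and Ldhb, and to 4 with library totals, without Ldhb; the cause was not tested.

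Counts over all genes depended more on the setting. With clenbuterol 517 were higher and 428 lower; these were 347 and 265 in TPM, 208 and 107 in FPKM, 178 and 84 at a TPM of at least 5, and 259 and 153 at 2-fold. For EPS by title 566 were higher and 765 lower; these were 324 and 586 in TPM, 214 and 257 in FPKM, 190 and 296 at a TPM of at least 5, and 211 and 312 at 2-fold. A stricter filter or fold can only lower these counts, and for TPM and FPKM the cause was not tested.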

Other observations

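The library titled EPS control had the highest CPM of the 4 for 18 of the 35 genes, and the clenbuterol control had the lowest for 18. Titled EPS was highest for 5 and lowest for 7. The same order was not counted over all measured genes, so these counts are not read as a trait of the pathway.

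For a pair of genes the deposited units disagreed in direction in the clenbuterol comparison, and in size but not direction in the EPS pair. Pfkfb4, which makes and breaks fructose 2,6-bisphosphate, had more counts with clenbuterol (343 against 309) but a lower TPM (4.76 against 5.99). Pfkp, the platelet phosphofructokinase gene, had fewer counts (3544 against 3780) but a higher TPM (43.1 against 39.8). How the authors' quantifier shared reads among transcripts of these genes was not tested.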
